A study of Homo sapiens with 6 samples.

Results

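Protein-coding genes that start between 2.6 and 4.2 Mb on chromosome 20 (GRCh38, GENCODE 29 gene starts) were followed in human C4-2 prostate cancer cells and in Enz-R, their counterpart made resistant to enzalutamide. The stretch lies on the short arm of the chromosome, and the MRPS26 gene in it was left out by rule. This gave 34 genes out of 19922 protein-coding genes in the count table. C4-2 is an androgen-responsive line derived from LNCaP, and enzalutamide is a drug that blocks the androgen receptor. There were 3 RNA-seq libraries of the parental line and 3 of Enz-R. The labels do not say how the resistant line was made, whether it is 1 clone, or whether its cells were in the drug when collected, and they name no separate cultures. The p-values given here thus rest on how far libraries of 1 group differ, and that may be technical variation.

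The 34 genes share a neighbourhood and no single function. They include parts of general cell machinery: a core protein of the particles that methylate ribosomal RNA (NOP56), a subunit of a Krebs cycle enzyme (IDH3B), a protein of centromeric DNA (CENPB), a phosphatase that starts mitosis (CDC25B) and the mitochondrial adaptor of antiviral signalling (MAVS). Others are genes of a few cell types, such as the hormone genes OXT and AVP, which are expressed in the hypothalamus. Neighbouring genes can change together when the number of DNA copies, the chromatin or a shared promoter changes, and gene counts alone do not separate these. DNA copy number was not tested here.

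The interval was chosen by the fold changes of its genes between these same 6 libraries, so all differences of its members between the groups are given as a description, without a test. Library totals ran from 15673404 to 28247038 counts, and mitochondrially encoded genes took 8.78% to 11.3% of the counts in the parental and 14.5% to 15.5% in the Enz-R libraries. The luminal markers KLK3, KLK2, KRT8, KRT18, FOLH1 and HOXB13 summed to 6892 to 7427 CPM (counts scaled to the size of each library) in the parental and 4419 to 4618 CPM in the Enz-R libraries. KLK3, KLK2, FOLH1 and HOXB13 were called lower, KLK3 giving most of the sum, whereas KRT8 (0.40 ± 0.06) and KRT18 (0.70 ± 0.07) were called higher. Markers of other cell types stayed low: 3.18 to 4.73 CPM for basal cells (KRT5, KRT14, TP63), 0.601 to 1.599 for white blood cells (PTPRC, CD3E, CD68), at most 0.274 for endothelium and 1.18 to 1.68 for fibroblasts. KRT14, a basal keratin, was at 0 in all 3 Enz-R libraries, no marker was at 0 in all 6, and their part in the results was not tested. In bulk RNA, fewer cells that express a gene and less RNA per cell cannot be told apart.

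Promoters of 3 members are shown first, left from a longer list after members without a usable stretch were dropped. These genes differed in direction and size: ATRN had the lowest fold change, and LZTS3 was 1 of the 2 members called higher in Enz-R. In CPM, MAVS was among the most abundant lower genes, less so per kilobase of annotated exons (15.2 CPM per kb, parental). RefSeq windows (GRCh38.p14) from 250 bases before to 50 after the start were matched for 18 of the 26 members that passed the count filter. Shown are the 150 bases upstream of the outermost RefSeq or GENCODE start of ATRN (chr20:3470868-3471017, plus strand), MAVS (chr20:3846649-3846798, plus strand) and LZTS3 (chr20:3173593-3173742, minus strand). None of the 3 stretches overlaps an annotated exon of a protein-coding gene. Capitals mark matches to the GC box GGGCGG and the CCAAT box CCAAT on either strand.
ATRN: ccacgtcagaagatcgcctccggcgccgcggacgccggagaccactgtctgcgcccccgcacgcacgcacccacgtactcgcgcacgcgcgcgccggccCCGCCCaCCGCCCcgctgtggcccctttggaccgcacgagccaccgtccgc
MAVS: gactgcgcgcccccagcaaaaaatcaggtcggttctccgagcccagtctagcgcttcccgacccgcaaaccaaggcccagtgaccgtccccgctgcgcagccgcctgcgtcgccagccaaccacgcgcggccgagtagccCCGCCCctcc
LZTS3: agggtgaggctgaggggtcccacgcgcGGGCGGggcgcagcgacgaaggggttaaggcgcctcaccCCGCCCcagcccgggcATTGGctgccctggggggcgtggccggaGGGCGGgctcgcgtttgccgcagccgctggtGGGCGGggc

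The stretches are rich in G and C, at 77.3% for ATRN, 70.7% for MAVS and 78.7% for LZTS3. Over the 300-base windows the median GC content was 71.8% in the 18 matched members and 63% in 15316 protein-coding genes with a window. The GC box, a site of SP1-type factors, occurred in 13 of 18 member windows (72.2%) and in 59.4% of all windows. The CCAAT box was found in 5 of 18 (27.8%, against 36.7% of all windows). The E-box occurred in VPS16 alone among the 18 (5.56%, against 8.85%), and the ETS motif CCGGAAG in IDH3B alone (5.56%, against 14.4%). The TATA box TATAAA was in GNRH2 and PANK2 (11.1%, against 9.73%) and AGAACA, part of the site that the androgen receptor binds, in ADISSP and ITPA (11.1%, against 11.0%). No member window held the cyclic AMP response element TGACGTCA (2.61% of all windows), the element TGATGNAA (2.52%) or the NRF1 motif (1.75%). The printed stretches hold 4 GC boxes and 1 CCAAT box for LZTS3, 2 GC boxes for ATRN and 1 for MAVS. A match is of letters only, both strands were searched, and no binding was measured.

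Of the 34 members, 26 passed the count filter (about 10 counts in at least 3 libraries) and entered edgeR's quasi-likelihood fit over 19029 genes. Of these 26, 22 were called lower in Enz-R at a Benjamini-Hochberg adjusted p under 0.05, 2 were called higher and 2 were not called. Among all tested genes 32.3% were called lower and 32.4% higher, 64.8% in either direction, and among tested protein-coding genes the shares were 37.3% and 31.8%. The median log2 fold change of Enz-R over parental was -0.76 in the members and -0.05 over 13580 tested protein-coding genes. The members ranged from -1.53 (ATRN) to 0.74 (SLC4A11), and 8 of the 22 lower genes were at least 2-fold lower. All 3 Enz-R libraries lay below all 3 parental libraries for 22 members and above them for 2, where 34.7% and 34.2% of all tested genes did so. Because this contrast chose the interval, nothing is read from these counts. Added up over all 34 members, the libraries held 1265, 1264 and 1276 CPM in the parental group and 743, 736 and 722 CPM in Enz-R.

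**Figure D1:**
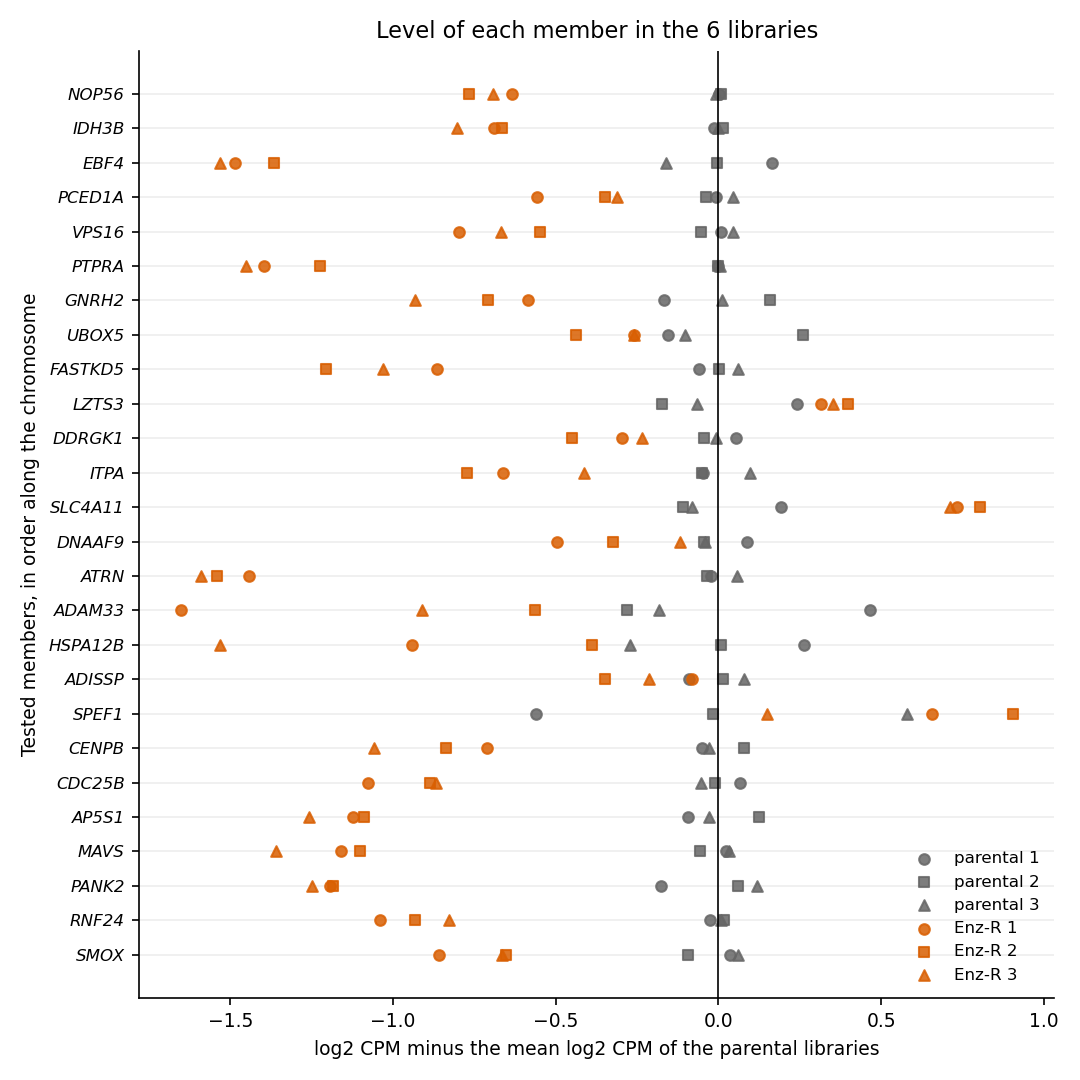
Each row is 1 of the 26 tested members in order along the chromosome, and each point is 1 library, given as its log2 CPM minus the mean log2 CPM of the 3 parental libraries (grey parental, orange Enz-R, marker shapes for the replicate number). For 22 members all orange points lie to the left of all grey points, and for LZTS3 and SLC4A11 they lie to the right.

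NOP56, IDH3B, FASTKD5, PANK2 and MAVS, with roles in RNA or mitochondria, were lower in Enz-R. NOP56 (ENSG00000101361, position 2652145 to 2658393), the scaffold protein of box C/D ribonucleoproteins, had 210.3, 211 and 209 CPM in the parental and 135, 123 and 130 CPM in the Enz-R libraries. The parental libraries were nearly equal and well above Enz-R, with a log2 fold change of -0.70 ± 0.06 (SE). Several small nucleolar RNAs lie within NOP56, and none of them passed the count filter. IDH3B (ENSG00000101365), a subunit of the isocitrate dehydrogenase that makes NADH in the Krebs cycle, went from 101 ± 0.995 CPM in the parental to 61.3 ± 3.103 CPM in the Enz-R libraries (mean ± SD, n = 3 each). It lies directly downstream of NOP56 on the other strand, and its fold change of -0.72 ± 0.06 was close to that of its neighbour.

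FASTKD5 (ENSG00000215251), which is needed to process mitochondrial messenger RNAs that lack flanking transfer RNAs, had 28.8, 30.0 and 31.2 CPM in the parental and 16.4, 12.9 and 14.6 CPM in the Enz-R libraries. The groups stood apart, and the fold change was -1.03 ± 0.09. PANK2 (ENSG00000125779), the mitochondrial enzyme of the first step of coenzyme A synthesis and the gene of an inherited neurodegeneration with iron in the brain, had 26.2, 31.0 and 32.2 CPM in the parental libraries. In Enz-R it had 12.9, 13.0 and 12.4 CPM, a fold change of -1.21 ± 0.09. The Enz-R libraries differed less among themselves than the parental ones.

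MAVS (ENSG00000088888, position 3846799 to 3876123) passes signals from the RNA sensors RIG-I and MDA5 on the outer membrane of mitochondria. It had 181, 172 and 183 CPM in the parental and 79.8, 83.1 and 69.6 CPM in the Enz-R libraries. Its fold change was -1.20 ± 0.07, and even the highest Enz-R library lay far below the lowest parental one.

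CENPB, CDC25B and EBF4, which act at centromeres, in the cell cycle and in transcription, were lower as well. CENPB (ENSG00000125817, position 3783851 to 3786690), which binds the repeats of centromeres, had 131, 143 and 133 CPM in the parental and 82.6, 75.6 and 64.9 CPM in the Enz-R libraries (-0.86 ± 0.08). CDC25B (ENSG00000101224), its neighbour on the other strand, a phosphatase that activates cyclin-dependent kinases, had 56.1, 53.1 and 51.5 CPM in the parental and 25.4, 28.9 and 29.3 CPM in the Enz-R libraries (-0.95 ± 0.07). Both genes of this back-to-back pair were lower in Enz-R, by similar amounts, from starts that are 82 bases apart in GENCODE. EBF4 (ENSG00000088881), a transcription factor of the early B-cell factor family, had 18.7, 16.6 and 14.9 CPM in the parental and 5.89, 6.41 and 5.69 CPM in the Enz-R libraries. Its fold change of -1.48 ± 0.12 was the second lowest of the members.

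Of 6 members next in line, VPS16, PCED1A, AP5S1, RNF24 and DDRGK1 were lower and UBOX5 was not called. VPS16 (ENSG00000215305), a shared subunit of the CORVET and HOPS complexes that tether endosomes and lysosomes, had 42.5, 40.7 and 43.6 CPM in the parental and 24.3, 28.9 and 26.5 CPM in the Enz-R libraries (-0.67 ± 0.08). Its back-to-back neighbour PCED1A, an esterase-domain protein, had 65.4, 64.1 and 67.8 CPM in the parental and 44.7, 51.6 and 52.9 CPM in the Enz-R libraries (-0.41 ± 0.07). Both were lower, PCED1A less so. AP5S1, the small subunit of the AP-5 adaptor of late endosomes, had 14.6, 17.0 and 15.3 CPM in the parental and 7.13, 7.29 and 6.47 CPM in the Enz-R libraries (-1.16 ± 0.11). RNF24, a ring finger protein of the Golgi, went from 67.4 ± 1.05 to 35.3 ± 2.61 CPM (mean ± SD, n = 3 each; -0.94 ± 0.07). DDRGK1, which anchors the enzyme that attaches the ubiquitin-like UFM1 at the endoplasmic reticulum, went from 54.7 ± 1.90 to 43.7 ± 3.35 CPM (-0.33 ± 0.07), 1 of the smaller differences. UBOX5, a U-box protein, was not called (-0.33 ± 0.14), although its 7.52, 10.1 and 7.81 CPM in the parental libraries lay above the 6.99, 6.18 and 6.99 CPM in Enz-R.

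Among receptors and surface proteins, ATRN and PTPRA had 2 of the 3 lowest fold changes. ATRN (ENSG00000088812, position 3471040 to 3651122) encodes attractin, a large glycoprotein known for its part in coat colour and myelin in rodents. It had 57.8, 57.3 and 61.1 CPM in the parental and 21.5, 20.1 and 19.4 CPM in the Enz-R libraries, a fold change of -1.53 ± 0.07. PTPRA (ENSG00000132670, position 2864184 to 3039076), a receptor tyrosine phosphatase that can activate SRC kinases, had 77.1, 77.0 and 77.5 CPM in the parental and 29.3, 32.9 and 28.2 CPM in the Enz-R libraries (-1.36 ± 0.07). Its parental libraries differed by less than 1 CPM. ADAM33, a metalloprotease gene studied in asthma, had 2.51, 1.45 and 1.56 CPM against 0.502, 1.18 and 0.906 CPM in Enz-R (-1.16 ± 0.33), at a level where few counts set the value.

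SLC4A11 and LZTS3 were the 2 members called higher. SLC4A11 (ENSG00000088836), a membrane transporter mutated in inherited corneal dystrophies, had 9.58, 7.76 and 7.91 CPM in the parental and 13.98, 14.7 and 13.8 CPM in the Enz-R libraries (0.74 ± 0.11). LZTS3 (ENSG00000088899), a leucine zipper protein of synapses, had 21.3, 16.0 and 17.2 CPM in the parental and 22.5, 23.8 and 23.0 CPM in the Enz-R libraries (0.34 ± 0.10). For LZTS3 the gap between the highest parental and the lowest Enz-R library was about 1 CPM, and its call was lost without parental replicate 2 (0.24). DDRGK1 and ITPA lie between the 2 genes and were lower.

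Of the metabolic enzymes, ITPA, which removes inosine triphosphate from the nucleotide pool, had 27.6, 27.5 and 30.6 CPM in the parental and 18.0, 16.6 and 21.4 CPM in the Enz-R libraries (-0.62 ± 0.09). SMOX, the spermine oxidase that breaks down polyamines, had 7.73, 7.06 and 7.86 CPM in the parental and 4.11, 4.76 and 4.72 CPM in the Enz-R libraries (-0.74 ± 0.14). Both were lower with no overlap of the groups. The remaining tested members had small differences or few counts. ADISSP went from 43.8 ± 2.59 to 37.8 ± 3.52 CPM (-0.21 ± 0.08), with overlapping groups, and DNAAF9, named for a part in assembling the motors of cilia, from 10.6 ± 0.565 to 8.52 ± 1.13 CPM (-0.32 ± 0.12). HSPA12B, a distant relative of HSP70 (-0.98 ± 0.31), and GNRH2, a gonadotropin-releasing hormone gene (-0.77 ± 0.25), stayed below 2 CPM in every library. SPEF1, a microtubule protein of cilia and sperm tails, was not called (0.68 ± 0.40) and stayed below 1 CPM.

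Leaving out single libraries ended some of these calls. That of DNAAF9 was lost without parental replicate 1 (-0.28), Enz-R replicate 1 (-0.22) or Enz-R replicate 2 (-0.31). That of ADISSP was lost without parental replicate 2 (-0.21), parental replicate 3 (-0.18), Enz-R replicate 2 (-0.14) or Enz-R replicate 3 (-0.20). HSPA12B was not called without parental replicate 1 (-0.82) or Enz-R replicate 3 (-0.75), nor ADAM33 without parental replicate 1 (-0.85), and UBOX5 was called without parental replicate 1 (-0.42). The calls of the other tested members held in all 6 of these fits, apart from LZTS3 as given above. With DESeq2 in place of edgeR, GNRH2, DNAAF9, HSPA12B and ADISSP were not called, nor were DNAAF9 and ADISSP with a filter of 50 counts in 3 libraries.

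The other 8 members did not pass the filter, and they are mostly genes of other tissues. OXT and AVP, the genes of oxytocin and vasopressin, as well as C20orf141, TMEM239 and ENSG00000241690, had 0 counts in all 6 libraries. A count of 0 allows up to 3 counts per library, or 0.104 to 0.194 CPM, counting error only. GFRA4, a receptor subunit for a relative of the neurotrophic factor GDNF, had 1 count in 1 parental library. SIGLEC1, a macrophage receptor, had 6 counts in all in the parental libraries and 8 in Enz-R, and the carboxypeptidase-like CPXM1 had 7 and 4. Per kilobase of annotated exons, CENPB (47.7), IDH3B (39.3) and NOP56 (38.9 CPM per kb) were the highest members in the parental group. That length joins the exons of all annotated transcripts of a gene, so the order between genes depends on the annotation. For NOP56 it was 5398 bases against a median transcript of 924, and for CENPB both were 2840. The median of the tested members was 7.75 CPM per kb, against 5.39 over all tested protein-coding genes.

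Some members share exon bases with a neighbour on the same or the other strand, and how reads there were counted is not known. The exons of VPS16 and PTPRA have 558 bases in common on the same strand, and those of FASTKD5 and UBOX5 have 132. PANK2 and RNF24 overlap by 661 exon bases on opposite strands and UBOX5 overlaps UBOX5-AS1 by 313. The strand setting of the counting is not given in the sources used here, so the separate values of these genes are uncertain. Of 26 noncoding or pseudogene loci that start in the interval, 5 were tested, of which 4 (1 a pseudogene) were called lower, none higher and 1, UBOX5-AS1, was not called (-0.15 ± 0.34). Among all tested genes 32.3% were called lower and 32.4% higher, but most of those are protein-coding. They are thus no close background for these 5 loci, and nothing is read from the count. PANK2-AS1 went from 3.07 ± 0.592 to 1.37 ± 0.309 CPM (-1.15 ± 0.23), close to the fold change of PANK2, with which it shares 30 exon bases at the start. An unnamed long noncoding RNA gene that starts 146 bases from SLC4A11 on the other strand, picked out after its value was seen, was lower (-0.59 ± 0.16), while SLC4A11 was higher.

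By position, the members fell into 3 runs, whose borders were set after the values were seen. From 2.6 to 3.1 Mb, NOP56 to GNRH2, all 7 tested members were called lower, with a median log2 fold change of -0.72. From 3.1 to 3.4 Mb, UBOX5 to DNAAF9, 4 of 7 were lower and 2 higher, with a median of -0.33. From 3.4 to 4.2 Mb, ATRN to SMOX, 11 of 12 were lower and none higher, with a median of -0.96. The middle run thus held both members that were higher, next to 4 that were lower. In single libraries the median distance from the parental mean in the middle run was -0.30, -0.44 and -0.23 in Enz-R, against -1.06, -0.86 and -0.98 in the right run.

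The borders of the interval were not borders of the difference. Just inside the left border, NOP56 (-0.70), IDH3B (-0.72) and EBF4 (-1.48) followed the outside genes TGM3 (-1.97), SNRPB (-0.30) and ZNF343 (-0.34), which were lower too. Just inside the right border lay PANK2 (-1.21), RNF24 (-0.94) and SMOX (-0.74), and the next tested genes outside were PRNP (-0.79), RASSF2 (-1.34) and SLC23A2 (-0.04, not called). Within 3 Mb to the right, 9 of 12 tested protein-coding genes were called lower and none higher, with a median of -0.78, about that of the members. Within 3 Mb to the left, which here reaches the chromosome end, 14 of 26 were lower and 9 higher, with a median of -0.31. These calls come from the same fit, with backgrounds of 37.3% lower and 31.8% higher among tested protein-coding genes. No test of the interval against its flanks was made.

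**Figure D2:**
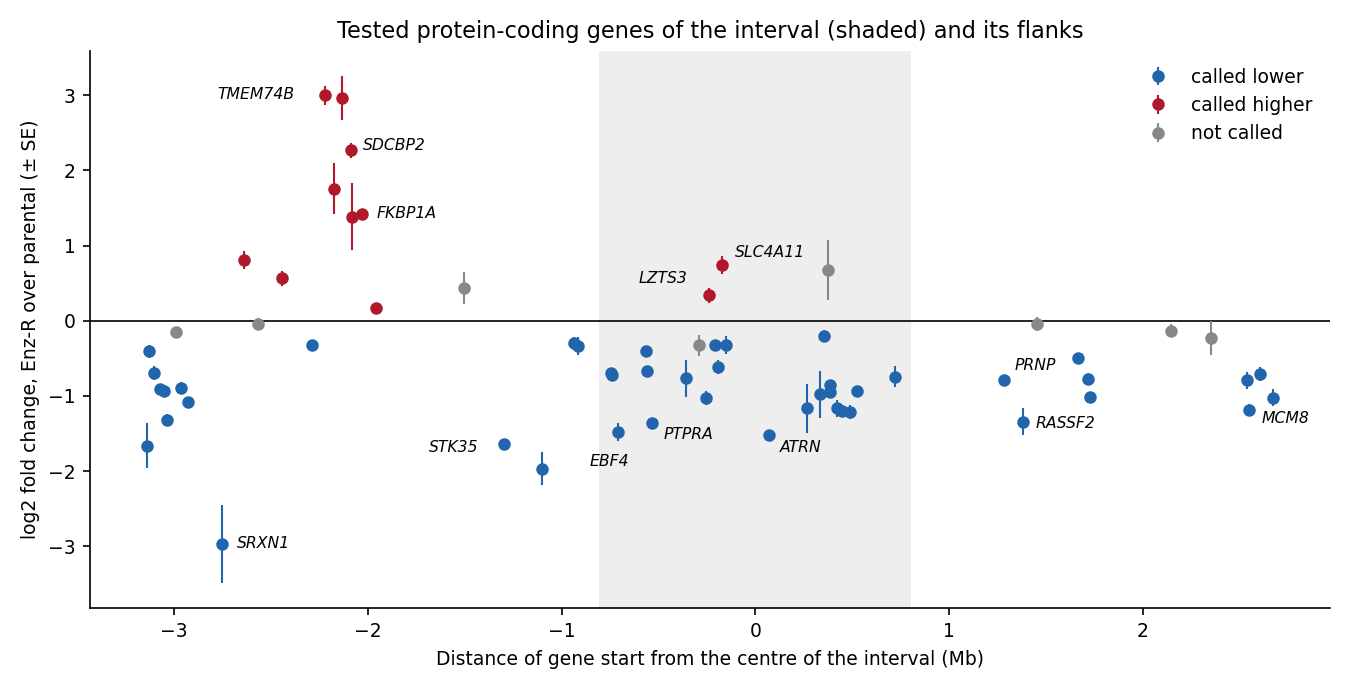
Each point is a tested protein-coding gene, with the distance of its start from the centre of the interval in Mb on the horizontal axis and its log2 fold change of Enz-R over parental ± SE on the vertical axis, coloured by its call. The shaded interval holds 22 genes called lower and 2 called higher, the right flank 9 lower and none higher, and the left flank a group of 9 higher genes between 14 lower ones.

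The left flank was itself in 3 stretches, again set after the values were seen. From the chromosome end to 0.7 Mb, 9 of 10 tested genes were lower and none higher (median -0.93), from 0.7 to 2 Mb 9 of 12 were higher and 1 lower (median 1.10), and from 2 to 2.6 Mb all 4 were lower (median -0.99). The flank genes with the largest differences at 5 CPM or more were TMEM74B (3.00 ± 0.13), SRXN1 (-2.97 ± 0.51), SDCBP2 (2.27 ± 0.10), the kinase gene STK35 (-1.64 ± 0.06) and FKBP1A (1.42 ± 0.07), which encodes the protein bound by FK506, on the left. On the right they were the helicase gene MCM8 (-1.19 ± 0.08), FERMT1 (-1.03 ± 0.11), CDS2 (-1.02 ± 0.07), TRMT6 (-0.79 ± 0.12) and the prion protein gene PRNP (-0.79 ± 0.07). The members had a narrower range than the left flank: their highest value was 0.74, against 3.00.

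In each Enz-R library the medians of the interval and of the right flank lay below those of the other sets. The median member stood at -0.76, -0.69 and -0.82 log2 units from the parental mean in the 3 Enz-R libraries, and the median gene of the right flank at -0.68, -0.86 and -0.73. The left flank stood at -0.25, -0.36 and -0.22, and protein-coding genes outside the interval at -0.03, -0.05 and -0.05. The parental libraries lay within 0.06 of their mean in all 4 sets.

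**Figure D3:**
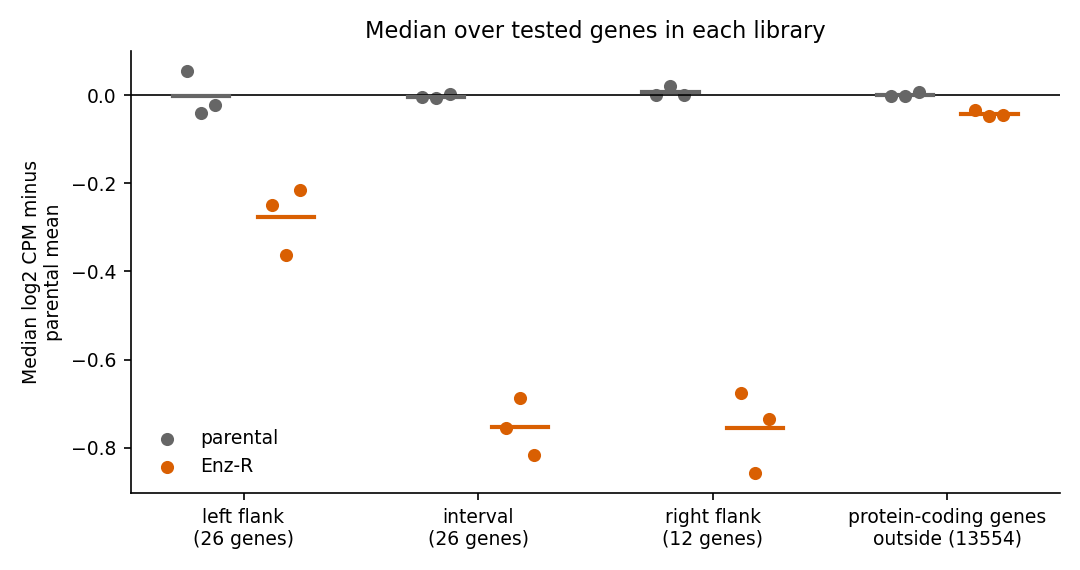
Points are single libraries and bars the mean of 3 libraries (grey parental, orange Enz-R), and the vertical axis is the median over tested genes of log2 CPM minus the parental mean. The Enz-R libraries sit between -0.82 and -0.69 for the interval and between -0.86 and -0.68 for the right flank, against -0.05 to -0.03 for protein-coding genes outside the interval.

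The tested members differed from other genes in some properties that the rule did not use. Their transcripts had a median GC content of 58.2%, against 56.1% in the left flank, 46.2% in the right flank and 50.6% over all tested protein-coding genes. With GC content and length regressed out of each library, the median of the members was -0.80, and 21 were lower and 2 higher. DNAAF9 was then not called (-0.07), and PCED1A (-0.61) and ADISSP (-0.45) stood lower than in the main fit. Others came closer to the parental level, among them MAVS (-0.84), PTPRA (-1.18) and ATRN (-1.23), all still called lower. EBF4 (-1.73) was then the lowest member in place of ATRN. The members' genes had a short span on the chromosome, with a median of 14.9 kb against 32.3 kb over all tested protein-coding genes. Their transcripts were longer, with a median of 1913 against 1068 bases, and transcript length was the length regressed out. Across the 26 members the fold change had a Spearman correlation of -0.39 with genomic span and 0.25 with GC content, and over 13580 protein-coding genes these were -0.23 and 0.16. They describe genes measured in the same 6 libraries, with no test.

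Genes elsewhere in the genome in the same complex, reaction or family as some of the members were compared next, since the rule did not use them. Those members were all called lower, and the list has no genes for SLC4A11, LZTS3 or MAVS. Some of the listed genes, called partners here, are only relatives of a member in a gene family. Of 41 such partners, none on chromosome 20, 20 were called lower, 10 higher and 11 not called by edgeR, with a median of -0.11. The share lower was above the 37.3% and the share higher below the 31.8% of tested protein-coding genes, and no test of the list was made. In box C/D particles, where NOP56 was lower, the methylase gene FBL rose from 189 ± 2.28 to 260.2 ± 23.2 CPM (0.46 ± 0.07, edgeR adjusted p = 2.82e-05) and SNU13 from 110.1 ± 2.80 to 158 ± 16.7 CPM (0.53 ± 0.07). NOP58, the close relative and partner of NOP56, stood at 0.06 ± 0.08 (edgeR adjusted p = 0.527). Of the other IDH3 subunits, the catalytic IDH3A fell (-0.43 ± 0.06) and IDH3G rose (0.25 ± 0.07). The 3 subunits thus had 3 different fold changes. The call of IDH3G was lost with GC content and length regressed out (0.12) and with total count scaling (0.16).

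Among the CORVET and HOPS tethers that include VPS16, 5 of 7 partners fell, led by VPS18 (-0.88 ± 0.09) and TGFBRAP1 (-0.58 ± 0.09), and VPS8 (0.35 ± 0.07) and VPS11 (0.23 ± 0.09) rose. VPS33A was among those that fell (-0.28 ± 0.11). The call of VPS11 was lost in the fits without 1 library (0.14 to 0.24) except that without Enz-R replicate 3, and that of VPS33A in those (-0.29 to -0.22) except the one without parental replicate 1. VPS33A also lost its call with GC content and length regressed out (-0.19), and TGFBRAP1 then stood at -0.33, still called. Of 5 AP-5 partners, AP5B1 (-1.08 ± 0.09), SPG11 (-0.53 ± 0.06) and ZFYVE26 (-0.32 ± 0.08) fell and 2 were not called, and the call of ZFYVE26 was lost with GC content and length regressed out (-0.11). The value of AP5B1 was about that of AP5S1 (-1.16). AP5M1, not called with all libraries (-0.11 ± 0.08), was called lower without Enz-R replicate 1 (-0.20) and with total count scaling (-0.21). In the UFM1 pathway, UFL1, the ligase that DDRGK1 anchors, fell by 0.98 ± 0.07 on the log2 scale and UFSP2 by 0.53 ± 0.12, whereas CDK5RAP3 (0.69 ± 0.09) and UFM1 (0.40 ± 0.08) rose.

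Among the partners of CDC25B, CENPB, PANK2, FASTKD5, ATRN and PTPRA some rose, some fell and some were not called. CDC25A fell (-0.37 ± 0.09) and CDC25C was not called (0.23 ± 0.10), beside -0.95 for CDC25B. CDC25C was called higher without Enz-R replicate 1 (0.35). The centromeric histone gene CENPA fell (-0.30 ± 0.09), a call lost without Enz-R replicate 2 (-0.23), and CENPC was not called (0.08 ± 0.11). With GC content and length regressed out, CENPC (0.26) and CDC25C (0.26) were called higher. Of 6 partners in coenzyme A synthesis, PANK3 (-0.56 ± 0.08), PANK1 (-0.52 ± 0.10) and PANK4 (-0.29 ± 0.07) fell, COASY, the enzyme of the final steps, rose (0.33 ± 0.06), and 2 were not called. With GC content and length regressed out, COASY stood at 0.16 and PANK4 at -0.48, both still called. Of 5 FASTK relatives of FASTKD5, TBRG4 (-0.51 ± 0.06), FASTKD1 (-0.41 ± 0.07) and FASTKD2 (-0.39 ± 0.07) fell and 2 were not called. FASTKD2 stood at -0.22, still called, and FASTK was called lower (-0.19) with GC content and length regressed out. MGRN1, a ubiquitin ligase tied to attractin in pigment cells, fell (-0.48 ± 0.06). The attractin relative ATRNL1 was near 1 CPM and called higher (0.71 ± 0.30, edgeR adjusted p = 0.0487), a call lost in each of the 6 fits without 1 library except that without Enz-R replicate 2. PTPRE, the closest relative of PTPRA, was not called (0.08 ± 0.11). The difference between each member and its partners was not tested.

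**Figure D4:**
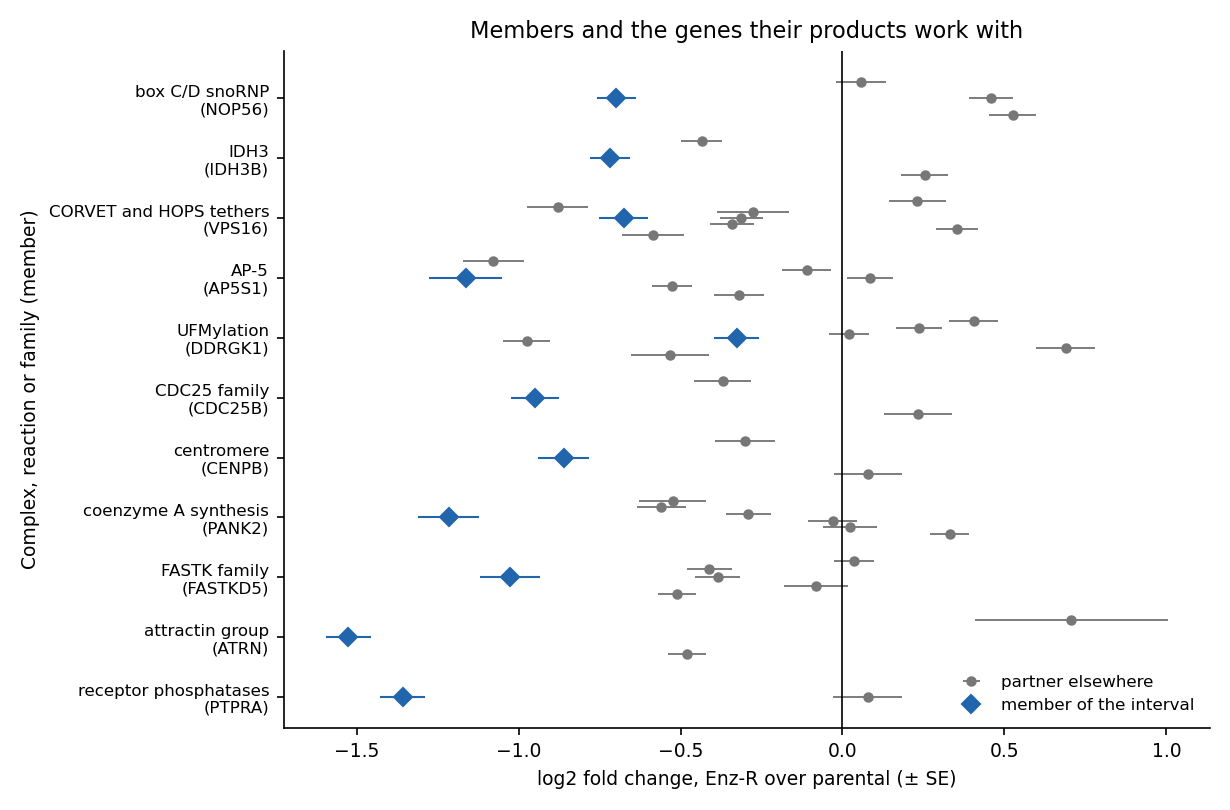
Blue diamonds are members of the interval and grey circles their 41 partners elsewhere in the genome, each at its log2 fold change of Enz-R over parental with its SE as the bar, 1 row per complex, reaction or family. The members lie between -1.53 (ATRN) and -0.33 (DDRGK1), and the partners between -1.08 (AP5B1) and 0.71 (ATRNL1).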

How the data were processed

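Per the submitters' processing notes the tool was HISAT2 and the build GRCh38. The sources used here do not give its version, the counting tool, the annotation or the strand setting. The authors deposited raw whole-number counts for each library over 59565 loci, of which 58676 have Ensembl identifiers. All of these are in GENCODE 29, which gave positions and types. Groups come from the sample titles. The members and lists were chosen with earlier results of these data known. Named genes are every member, the partners (1 is counted but not reported here), the 5 largest called differences per flank at 5 CPM or more in the higher group, and noncoding genes that passed the filter, except pseudogenes and clone names.

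The 2 groups were set against each other in edgeR 4.0.16 (R 4.3.3), with filterByExpr, TMM scaling and the quasi-likelihood test. No covariate was used. Benjamini-Hochberg adjustment ran over 19029 genes, with 0.05 as the threshold. CPM uses TMM-scaled totals. Each SE is the fold change over the square root of its F value. Log2 distances per library use a prior count of 2. Replicate pairs had a chi-square per degree of freedom of 3.91 to 8.98, above counting error. On simulated data for this comparison (18987 genes) the fit called 42 of 66 1.5-fold changes (63.6%) and 52 of 67 2-fold changes (77.6%). It also called 66 of 66 4-fold changes and 19 of 18788 unchanged genes. Only these few genes were changed in the simulation, whereas 64.8% of tested genes were called in the real data. The rates thus need not hold for the real data. Of tested genes, 96.3% had a known GC content. Alternatives used DESeq2 1.42.0 and limma 3.58.1 voom, other scalings and filters, GC content and length, the replicate number, single libraries left out, and other borders. Motifs and tables used Python 3.11.15 with pandas 2.3.3 and matplotlib 3.10.9.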

Additional observations from a re-analysis of the deposited data

How the results depend on the processing

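The count of members called lower was 17 to 23 over all alternatives and their median log2 fold change -0.85 to -0.70. Total count scaling moved the median of all tested genes from 0.01 to -0.08, that of the members to -0.85, and left 6 instead of 10 partners higher. Leaving out 1 library at a time, 20 to 21 members were lower and 1 to 2 higher, with 1 higher only without parental replicate 2. With no filter beyond a nonzero total, 1 gene of the right flank was called higher. With flanks of 1.5 Mb, 5 of 13 genes were lower and 7 higher on the left, so that most left genes called were then higher, and 5 of 7 were lower on the right. AP5Z1 (-0.17) and FASTK (-0.19), both not called otherwise, were lower with GC content and length regressed out, with or without the replicate block. The cause was not tested. Same-numbered libraries of the 2 groups correlated at -0.01 to 0.05 in their deviations from the group means, and differently numbered ones at -0.05 to 0.05. These values show no pairing by number, but with 3 libraries per group they cannot exclude a shared batch. The mitochondrial share fell from replicate 1 to replicate 3 in both groups (11.3% to 8.78% in parental, 15.5% to 14.5% in Enz-R). With the replicate block, 22 members were lower and 2 higher, with a median of -0.76. Of the partners, VPS33A and ATRNL1 lost their calls under it and CDC25C gained one. Of 1258 values of named genes under the alternatives, 1189 kept their side of the threshold and direction, 54 lost and 11 gained the call and 4 reversed. Genes below about 10 counts per library were left out by the filter.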

Other observations

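The lower level of neighbouring genes was not limited to the interval and its flanks. Of 44 tested protein-coding genes of chromosome 20 that start between 7.2 and 25 Mb, on the same arm, 28 were called lower in Enz-R and 1 higher, with a median log2 fold change of -0.49. Beyond 25 Mb, 82 of 261 tested genes were called lower and 84 higher, with a median of 0.01. Those are 31.4% and 32.2%, beside 37.3% and 31.8% of all tested protein-coding genes. The split at 25 Mb was set after the values were seen, and the difference between the 2 stretches was not tested.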
